A study of Homo sapiens with 6 samples.

Results

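The 10 genes described here are targets and antagonists of bone morphogenetic protein (BMP) signalling: ID1, ID2, ID3, ID4, SMAD6, SMAD7, BAMBI, NOG, GREM1 and CHRD. They were chosen by name, as 10 of 20015 protein-coding genes, and each was read through the listed peaks that overlapped 1500 bp on either side of any of its transcript starts in GENCODE v44 (hg38). The peaks came from sequential ChIP-seq (reChIP-seq) of NCI-H661, a line from a large cell carcinoma of the lung, in which chromatin pulled down with a first antibody is pulled down again with a second. Cells were untreated and parental in all 6 libraries, with 1000000 cells used for each reChIP. K4–K119 (H3K4me3 first, H2AK119ub second), K119–K4 (the same antibodies in the opposite order) and IgG–IgG (rabbit IgG in both steps, the control) had 2 replicates each. All libraries are of 1 cell line and hold no second cell state, no treatment and no RNA measurement. The question put to these genes is whether both marks lie on their promoters. Promoters with both are called bivalent here in the sense of H3K4me3 with H2AK119ub. H3K27me3, which with H3K4me3 is the traditional definition of bivalent chromatin, was not read.

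BMPs bind pairs of receptor kinases, which phosphorylate SMAD1, SMAD5 and SMAD9. With SMAD4, these enter the nucleus and switch on a set of direct targets, among which the ID genes are the best known. Other proteins restrain the signal. SMAD6 and SMAD7 block the receptors and their SMADs inside the cell, and BAMBI is a receptor-like membrane protein without a kinase. The secreted proteins noggin (NOG), gremlin 1 (GREM1) and chordin (CHRD) hold BMPs outside the cell. H3K4me3 marks the starts of active or poised genes, and H2AK119ub is placed by Polycomb repressive complex 1. H3K4me3 and Polycomb marks together are a known feature of developmental genes in embryonic stem cells.

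The reChIP libraries held 1977756 and 918532 reads in listed peaks for K4–K119 and 1580579 and 867173 for K119–K4, against 58980 and 65445 for IgG–IgG. These sums cover listed peaks alone, so sequencing depth is unknown, and a gene without a peak may still have had reads. The median listed peak held 2 reads in every library. Peaks were scored against input, and 1378 of 1378 peaks with input reads and the same coordinates in several libraries had the same number of input reads. Within each library the listed fold was a fixed multiple of reads per input read, but the multiple differed between libraries. A log2 fold of 1 corresponded to 0.657 and 7.9 reads per input read in the K4–K119 replicates. In the K119–K4 replicates it corresponded to 9.48 and 7.24. In unscaled reads per input read, the same fold therefore set a lower bar in K4–K119 replicate 1 than in the other reChIP libraries. The fold itself is relative to scaled input.

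At the promoters of these genes, reads of both orders were the rule: 9 of the 10 had a promoter peak of at least 10 reads in each of the 4 reChIP libraries, GREM1 being the exception, against 28.8% of all protein-coding genes. None of the 10 had an IgG–IgG peak at a promoter in either library, against 19.1% of all genes. The median main promoter peak held 2 reads in each IgG–IgG library. A reciprocal region, which is a stretch called in both replicates of both antibody orders with a log2 fold above 1, an FDR below 0.05 and an overlap of more than 25% of both peaks, lay at 6 of 10: ID3, ID4, SMAD6, SMAD7, BAMBI and NOG. Across all genes such a region lay at 4180 of 20015, or 20.9%. With each order taken by itself, a kept peak shared by both K4–K119 replicates lay at 7 members, against 33% of all genes, and 1 shared by both K119–K4 replicates lay at 7, against 30%. The 10 genes were chosen by name with earlier results of these data known, so no test was made of their counts against these shares.

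**Figure D1:**
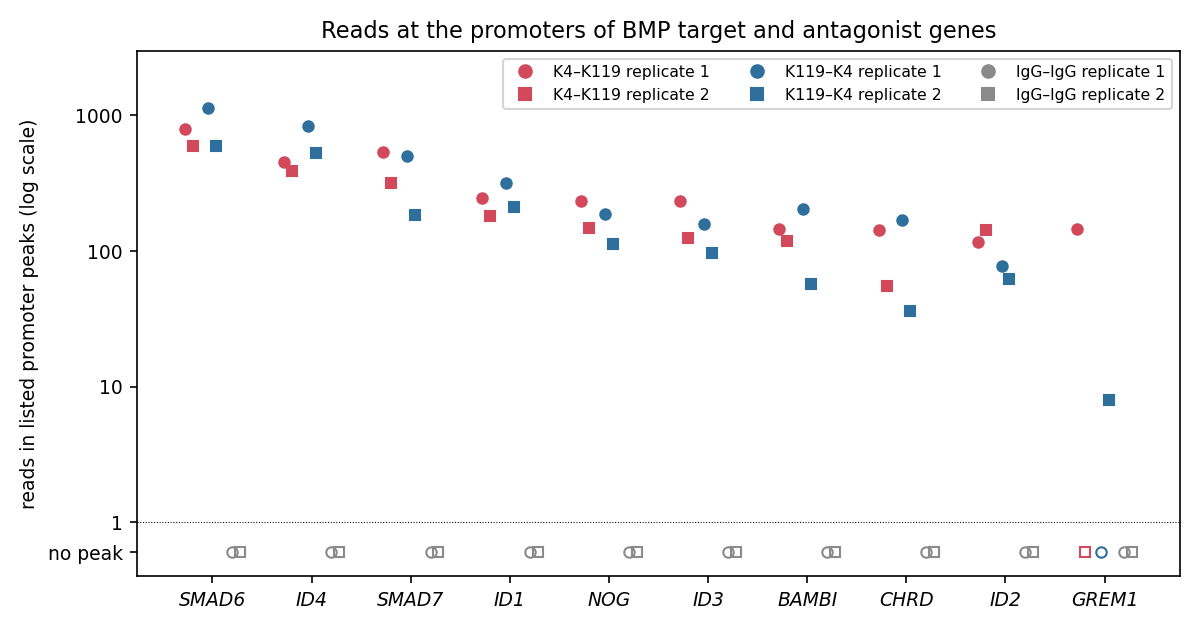
Reads in listed promoter peaks (log scale) for each gene, from the most to the fewest reads, in K4–K119 (red), K119–K4 (blue) and IgG–IgG (grey), with circles for replicate 1 and squares for replicate 2. Open symbols at the foot stand for libraries with no listed promoter peak, which are both IgG–IgG libraries at every gene and 2 reChIP libraries at GREM1.

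SMAD6, the inhibitory SMAD that acts mainly on BMP signals, had the most reads of the 10. Its promoter peaks summed to 792 and 595 reads in the K4–K119 libraries, and 1136 and 599 in the K119–K4 libraries, against no listed peak in IgG–IgG. The total of 3122 ranked 25 among the 20015 genes. The reciprocal region ran over 6900 bp, chr15:66700701-66707600, on the plus strand of hg38, contained the canonical start at 66702236 and covered exon 1 with part of the first intron. Its width was at the 99.5 percentile of the 4025 reciprocal regions, whose median was 2100 bp. Within it, the 3300 bp that lay in the main peak of all 4 libraries began 65 bp after the start.

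SMAD7, which also blocks receptors of the TGF-beta branch, had 535 and 318 reads in the K4–K119 libraries, and 500 and 185 in the K119–K4 libraries. Its region of 5100 bp, chr18:48948101-48953200, spanned the canonical start at 48950965 on the minus strand and contained exons 1 and 2. It extended 2235 bp before and 2864 bp after the start. The second K119–K4 replicate had the fewest reads, but its main peak still spanned 3400 bp.

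The starts of the 2 inhibitory SMADs are printed here because they differ in base composition although both lay in long regions. Each sequence is the RefSeq promoter of GRCh38.p14, 250 bases before to 50 after the RefSeq start, 5′ to 3′ on the gene's strand, with CpG dinucleotides in capitals. The SMAD6 stretch, chr15:66701986-66702285 on the plus strand, held 29 CpGs and the SMAD7 stretch, chr18:48950916-48951215 on the minus strand, held 13.
SMAD6: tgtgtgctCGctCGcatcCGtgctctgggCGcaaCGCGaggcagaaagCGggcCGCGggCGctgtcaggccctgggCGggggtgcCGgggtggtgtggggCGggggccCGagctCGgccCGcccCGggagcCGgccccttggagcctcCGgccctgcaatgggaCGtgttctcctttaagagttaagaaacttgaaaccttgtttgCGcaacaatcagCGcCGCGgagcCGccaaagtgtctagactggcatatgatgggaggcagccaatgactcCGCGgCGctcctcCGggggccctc
SMAD7: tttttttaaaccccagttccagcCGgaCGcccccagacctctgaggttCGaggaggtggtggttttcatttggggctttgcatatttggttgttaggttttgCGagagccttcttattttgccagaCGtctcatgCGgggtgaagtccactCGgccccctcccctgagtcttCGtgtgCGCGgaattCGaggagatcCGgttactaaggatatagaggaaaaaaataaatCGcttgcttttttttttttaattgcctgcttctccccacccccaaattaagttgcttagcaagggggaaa
Over the wider 1500 bp on either side of the canonical start, by contrast, SMAD6 had 300 CpGs and SMAD7 had 270.

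The ID proteins dimerize with basic helix-loop-helix factors and keep them from binding DNA. ID4 had the second most reads, with 452 and 392 in the K4–K119 libraries, and 836 and 529 in the K119–K4 libraries. Its region of 3500 bp, chr6:19836201-19839700, contained the single annotated start, exons 1 and 2 and the first part of exon 3. Reads were dense here: the main peaks held 192 and 115 reads per kb in the K4–K119 libraries, and 398 and 230.0 in the K119–K4 libraries, where the median main peak of at least 10 reads held 54 and 40 in the K4–K119 libraries and 68 and 42.1 in the K119–K4 libraries. Relative to input, ID4 also stood highest of the members in 3 of the 4 libraries, with 36.8 and 23.1 reads per input read in the K4–K119 libraries, and 92.9 and 48.1 in the K119–K4 libraries. In K4–K119 replicate 1, ID3 stood above it at 43.2.

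ID3 had 232 and 124 reads in the K4–K119 libraries, and 158 and 97 in the K119–K4 libraries. The region of 2400 bp, chr1:23557501-23559900, took in all 3 exons of this short gene, which is read from 23559501 down to 23557926 (minus strand). ID3 had the fewest CpGs of the 10, with 117 within 1500 bp of the start, near the median of 115 over all genes. Of the genes in the same decile of CpG count, 16.9% had a reciprocal region.

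ID1 had more reads than ID3 but no region. It had 247 and 182 reads in the K4–K119 libraries, and 320 and 210 in the K119–K4 libraries. The 4 main peaks shared 1800 bp, chr20:31605301-31607100, from 12 bp after the canonical start to beyond the end of the second and last exon. What kept ID1 out was the fold of 1 peak: the main peak of K4–K119 replicate 2, with 182 reads and 26 input reads, had a log2 fold of 0.83, below the limit of 1. The same unscaled ratio of 7 reads per input read would have passed under the input scaling of replicate 1. Without K4–K119 replicate 2, ID1 had a region.

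ID2 had 117 and 142 reads in the K4–K119 libraries, and 78 and 62 in the K119–K4 libraries. Its unscaled ratio was 6.33 and 6.36 reads per input read in the K4–K119 libraries, and 7.11 and 5.45 in the K119–K4 libraries. The log2 fold, which is relative to scaled input, was 4.27 in K4–K119 replicate 1 and 0.69 in replicate 2. It was 0.59 in both K119–K4 replicates, so 3 of the 4 main peaks fell below the limit. The 1600 bp shared by the 4 main peaks, chr2:8682101-8683700, began 45 bp after the canonical start and ended just inside exon 3, the last. The long noncoding RNA ID2-AS1 starts within the window of ID2, and a long noncoding gene, ENSG00000289875, within that of ID1. Peaks carry no strand, so they could not be assigned between such neighbours.

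**Figure D2:**
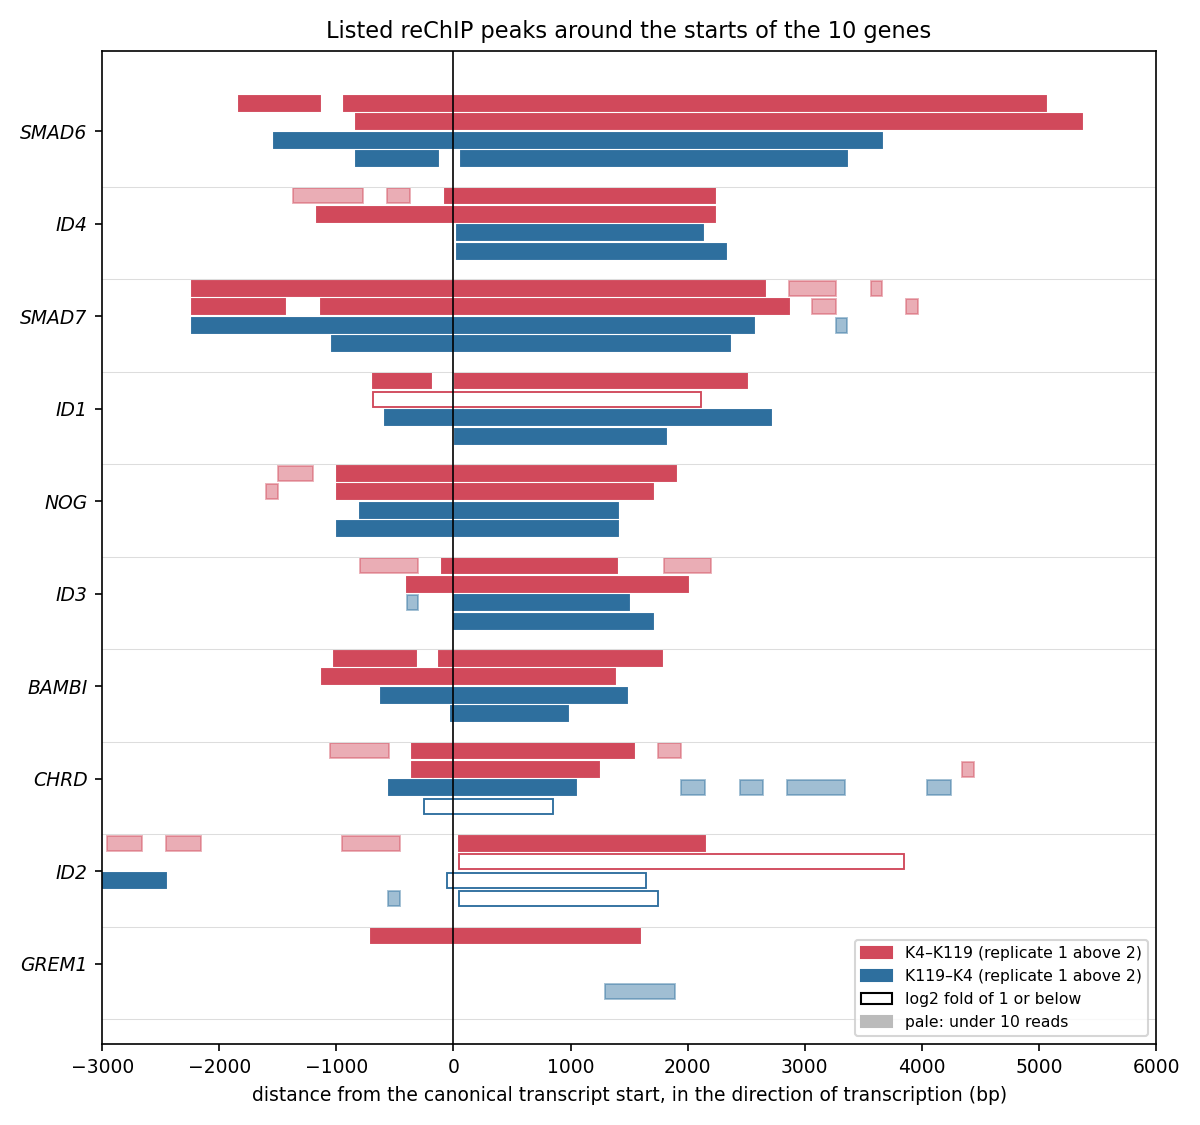
Listed peaks of the 4 reChIP libraries around the canonical start of each gene, by distance in the direction of transcription (bp), with K4–K119 in red above K119–K4 in blue and replicate 1 above replicate 2. Outlined peaks had a log2 fold of 1 or below, which left ID1, ID2 and CHRD without a reciprocal region, and pale peaks held under 10 reads, as did the only K119–K4 peak of GREM1.

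BAMBI had 146 and 118 reads in the K4–K119 libraries, and 205 and 57 in the K119–K4 libraries. Its region of 2900 bp, chr10:28676401-28679300, covered exon 1. The 4 main peaks shared only 1000 bp, the width of the K119–K4 replicate 2 peak, and BAMBI was the member that lost its region when the overlap had to exceed 50% of both peaks. NOG had 233 and 149 reads in the K4–K119 libraries, and 189 and 113 in the K119–K4 libraries. Its region, chr17:56592701-56595600, was also 2900 bp long and covered nearly all of its single exon. Here 2200 bp lay in the main peak of all 4 libraries.

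CHRD had 142 and 55 reads in the K4–K119 libraries, and 170 and 36 in the K119–K4 libraries. Replicate 2 was the lower one in both orders. In K119–K4 replicate 2 the main peak, with 36 reads, had a log2 fold of 0.99, and CHRD had no region for that reason. The 1100 bp common to the 4 main peaks, chr3:184379801-184380900, covered exons 1 and 2 of 23. THPO, which encodes thrombopoietin, has a start in the same window and had 142 and 55 reads in the K4–K119 libraries, and 169 and 38 in the K119–K4 libraries. CHRD and THPO cannot be told apart by these peaks.

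GREM1 was the exception among the 10. It had 145 reads in K4–K119 replicate 1 and no listed promoter peak in replicate 2. In K119–K4 it had no listed peak in replicate 1 and 8 reads in replicate 2, in a peak that began 1297 bp after the start. So no reads over the GREM1 start were listed in either K119–K4 library. Its total of 153 reads ranked 7987. The K4–K119 replicate 1 peak spanned 2300 bp, chr15:32717301-32719600, and the antisense gene GREM1-AS1 also starts in this window.

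For each gene, listed promoter reads of the 4 reChIP and 2 IgG–IgG libraries were compared by an exact one-sided permutation test. The reads were not scaled for the smaller IgG–IgG sums, and 0 in IgG–IgG means that no peak was listed. In all, 9 members had more listed reads in every reChIP library than in either IgG–IgG library, 9 of 10 against 40.5% of all genes. Their exact permutation p was 0.0667, the smallest that 15 assignments of 6 libraries can give, so none could pass 0.05. For GREM1, with no listed peak in 2 reChIP libraries, the exact permutation p was 0.4.

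CpG density was read beside these values because Polycomb marks and H3K4me3 are both known to favour CpG-rich promoters. Among all 20015 genes the median was 115 CpGs within 1500 bp of the canonical start, and among genes with a reciprocal region it was 171. In all, 7 members (SMAD6, SMAD7, GREM1, ID4, NOG, BAMBI and CHRD) were in the top decile, of 202 to 438 CpGs, and 5 of these 7 had a region, where 58.3% of the genes of that decile did. ID1, with 172 CpGs, was in a decile where 46.4% had one and ID2, with 132, in a decile where 25.9% had one. GREM1 had 251 CpGs, close to ID4 with 249, and 153 reads in the reChIP libraries, where ID4 had 2209. The part that CpG content has in the members' count was not tested further.

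**Figure D3:**
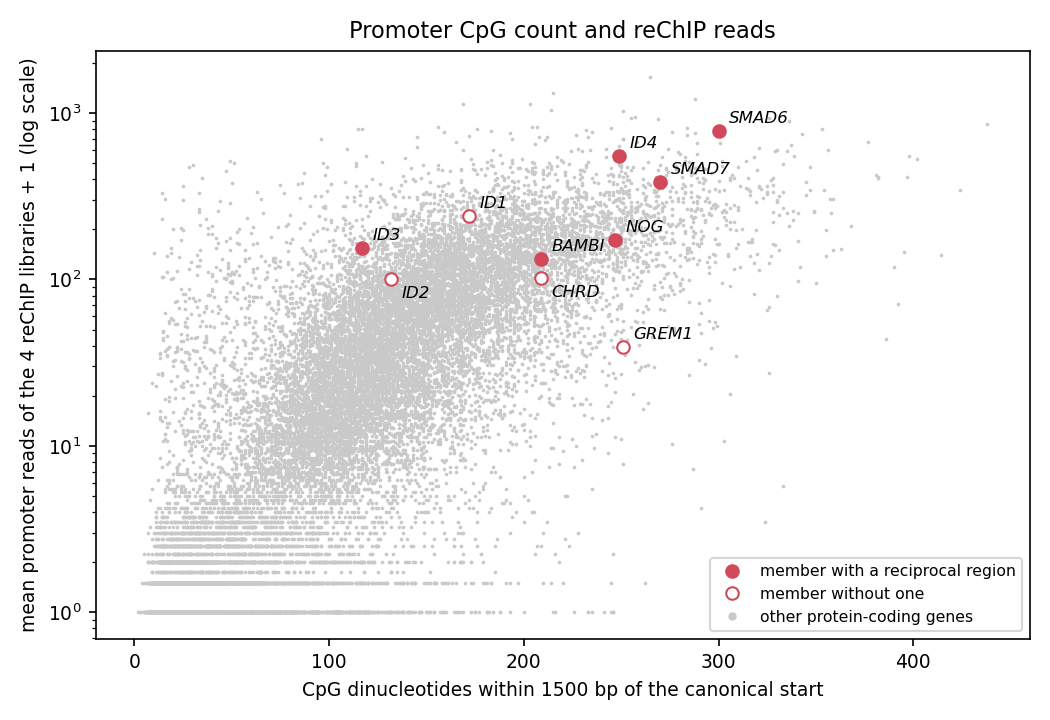
CpG dinucleotides within 1500 bp of the canonical start against mean promoter reads of the 4 reChIP libraries plus 1 (log scale), for the 10 genes (red, filled where a reciprocal region was found) and other protein-coding genes (grey). ID3 lies at 117 CpGs and GREM1, with the fewest reads of the 10, at 251.

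The promoters of ID3 and GREM1 are printed to show this contrast, in the same way as above. The ID3 stretch, chr1:23559452-23559751 on the minus strand, held 27 CpGs and the GREM1 stretch, chr15:32717754-32718053 on the plus strand, held 42.
ID3: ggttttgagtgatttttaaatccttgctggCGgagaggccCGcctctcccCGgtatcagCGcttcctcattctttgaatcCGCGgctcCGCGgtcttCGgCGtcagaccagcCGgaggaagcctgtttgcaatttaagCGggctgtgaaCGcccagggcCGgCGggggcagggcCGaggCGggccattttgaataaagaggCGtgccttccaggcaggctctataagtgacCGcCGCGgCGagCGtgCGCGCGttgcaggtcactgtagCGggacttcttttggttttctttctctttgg
GREM1: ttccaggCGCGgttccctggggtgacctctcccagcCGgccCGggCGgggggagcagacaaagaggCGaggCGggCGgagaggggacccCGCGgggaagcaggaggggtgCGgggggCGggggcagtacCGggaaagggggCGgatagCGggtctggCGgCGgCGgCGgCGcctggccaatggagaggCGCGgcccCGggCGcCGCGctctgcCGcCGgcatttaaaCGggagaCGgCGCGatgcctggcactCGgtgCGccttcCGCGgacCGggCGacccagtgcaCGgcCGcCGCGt
The 9 RefSeq promoters that matched by symbol, all members but NOG, were equal to hg38 at their coordinates. Their CpG counts overlapped between genes with and without a region, from 13 in SMAD7 to 47 in BAMBI with a region and from 22 in ID1 to 42 in GREM1 without one.

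BMP-activated SMADs are known to bind a GC-rich element, GGCGCC, spaced by 5 bases from the SMAD4 element GTCT. The letters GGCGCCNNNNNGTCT were searched on both strands within 1500 bp of the canonical start and were found at 2 of 10 members, ID3 and GREM1, against 0.729% of all genes. The matches are shown with 7 bases on either side in lower case and the 15 bases of the match in capitals, as read on the gene's strand, and in GREM1 the motif is on the opposite strand.
ID3: cctccctGGCGCCGGCCAGTCTgcggacg
GREM1: gaatggtAGACGTTCTGGCGCCgggcagc
The ID3 match, chr1:23558488-23558502, was in the second intron, from 999 to 1013 bp after the start, and inside the listed peaks of all 4 reChIP libraries. The GREM1 match, chr15:32718937-32718951, was in the first intron, from 933 to 947 bp after the start, and inside the peak of K4–K119 replicate 1 alone. The related letters GGAGCCNNNNNGTCT were found at none of the 10 and at 1.18% of all genes. The short element GGCGCC alone was present at 10 of 10 members and at 66.2% of all genes. These are matches of letters and say nothing of whether a SMAD was bound there.

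The 2 orders of antibodies were compared at each promoter with edgeR's quasi-likelihood test on the summed reads of 12722 genes. No gene passed an adjusted p of 0.05, either higher in K4–K119 (0%) or higher in K119–K4 (0%). At an unadjusted p below 0.05 there were 1003 genes, and DESeq2 called 310 genes higher in K4–K119 and 316 higher in K119–K4, none of them a member. ID4 averaged 371 counts per 1000000 promoter reads (CPM, TMM scaled) in K4–K119 and 789 in K119–K4, a log2 ratio of K4–K119 over K119–K4 of −1.09 (SE 0.45, 95% interval −2.30 to 0.12, edgeR adjusted p = 0.675). Its 2 values in each order did not overlap, at 247 and 496 in the K4–K119 libraries, and 625 and 952 in the K119–K4 libraries.

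SMAD6 had 432 and 752 CPM in the K4–K119 libraries, and 850 and 1078 in the K119–K4 libraries, a log2 ratio of −0.70 (SE 0.39, 95% interval −1.74 to 0.33, edgeR adjusted p = 0.779). ID1 had 135 and 230.1 in the K4–K119 libraries, and 239 and 378 in the K119–K4 libraries, a log2 ratio of −0.76 (SE 0.38, 95% interval −1.78 to 0.26, edgeR adjusted p = 0.751). Neither gene's values overlapped between the orders, but neither passed the test. The share of all fitted genes whose values separate in this way was not counted. The separation at ID4, SMAD6 and ID1 is therefore not read as an effect of order. SMAD7, ID3, NOG, BAMBI and CHRD had log2 ratios from −0.39 to −0.03, and their values overlapped. ID2 had 0.52 (SE 0.65). For GREM1 the fitted 2.50 had an SE of 3.17 and rested on 1 library of each order. The median log2 ratio was −0.15 over the members and 0.28 over all genes fitted. Of the members, 8 of 10 were below 0, where 60.0% of all genes fitted were above 0. With at least 10 reads in each library, a setting chosen after seeing the data, the median over all genes was 0.019. In that setting 5 of 9 members fitted were below 0, and the share of all genes below 0 was not counted. The intervals reached beyond 1 in size at 7 of the 10, all but ID3, SMAD7 and NOG.

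**Figure D4:**
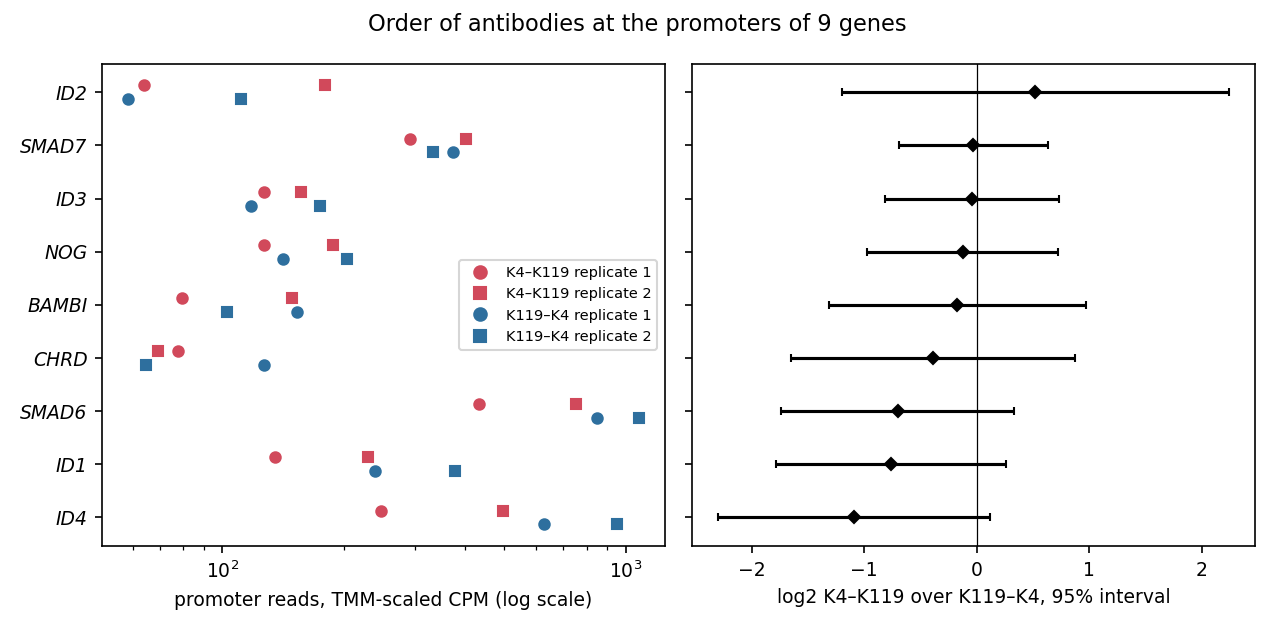
Left, promoter reads as TMM-scaled CPM (log scale) of K4–K119 (red) and K119–K4 (blue) for 9 genes, with circles for replicate 1 and squares for replicate 2. Right, the log2 ratio of K4–K119 over K119–K4 with its 95% interval from edgeR, which includes 0 at all 9. ID4, ID1 and SMAD6 are the lowest at −1.09, −0.76 and −0.70.

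The other genes of the pathway were taken from lists of 46 symbols, set by role. A reciprocal region lay at 13 of 46, or 28.3%, against 20.9% of all genes, and 7 of 46 had an IgG–IgG peak at a promoter, against 19.1% of all genes. The counts by role below stand beside the same 20.9% and rest on few genes. Among 13 ligands, 2 had a region: BMP7, with 613 and 358 reads in the K4–K119 libraries, and 577 and 227 in the K119–K4 libraries, and BMP8A. Reads of BMP8A and its near-identical copy BMP8B may have been exchanged in alignment, so both are uncertain. Among 12 receptors and co-receptors, 4 had one. These were RGMB and RGMA, co-receptors of the repulsive guidance family, and the receptors ACVR2B and BMPR1A. RGMB had 569 and 213 reads in the K4–K119 libraries, and 519 and 171 in the K119–K4 libraries.

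Of the 4 SMADs that carry the signal, SMAD9 and SMAD1 had a region. SMAD1 had 94 and 38 reads in the K4–K119 libraries, and 135 and 53 in the K119–K4 libraries, fewer than SMAD6 or SMAD7 in each library. Among 13 other antagonists, NBL1 and FSTL3 had one. NBL1, of the same DAN family as gremlin 1, had 350 and 164 reads in the K4–K119 libraries, and 372 and 132 in the K119–K4 libraries. Of 4 ubiquitin ligases and co-repressors, SKI, SKIL and SMURF2 had one. SKI, a co-repressor of SMADs, had 965 and 546 reads in the K4–K119 libraries, and 1411 and 511 in the K119–K4 libraries, a total of 3433, which was above that of SMAD6. At RGMA, SMAD9 and SMURF2, 1 of the IgG–IgG libraries listed a promoter peak, with 2 reads.

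**Figure D5:**
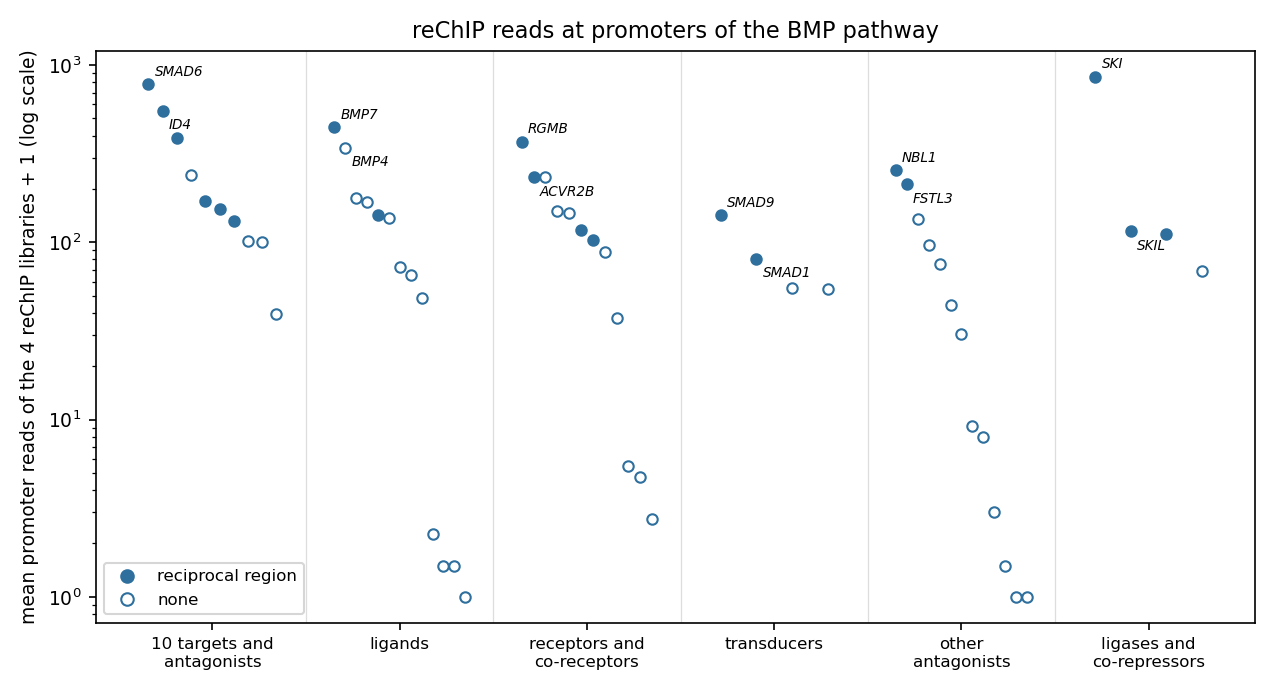
Mean promoter reads of the 4 reChIP libraries plus 1 (log scale) for the 10 targets and antagonists and for 46 other pathway genes by role, filled where a reciprocal region was found, with the 2 highest of each list named. Regions were found at 6 of the 10, 2 of 13 ligands, 4 of 12 receptors and co-receptors, 2 of 4 transducers, 2 of 13 other antagonists and 3 of 4 ligases and co-repressors.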

How the data were processed

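The submitters' processing notes name Trim Galore 0.6.6, BWA 0.7.13, SAMtools 1.9, Picard 2.6.0 and hg38. Peaks were called by the authors in each replicate with EPIC2, in 100 bp bins. The deposited counts of reads and of input reads per peak are whole and unscaled. The deposited p-value and FDR compare a peak with input, separately for each library. The authors' log2 fold is relative to scaled input, and the deposited score follows from that fold.

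Kept peaks had FDR below 0.05 and log2 fold above 1, and reciprocal regions were built as described. The authors' blacklist was not used here. Promoter reads were summed over listed peaks. Orders were compared with edgeR 4.0.16 (quasi-likelihood, TMM, genes with a mean of at least 10 reads over the 4 libraries, Benjamini-Hochberg), with DESeq2 1.42.0 as an alternative, in R 4.3.3. Code was tested on simulated data. For the order comparison the simulated spread between replicates was capped, so that test does not measure power in these data. The extent of calling differed between libraries and enters every sum, and p-values measure the spread of 2 replicates of 1 cell line.

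The text names all 10 members, from each pathway list at most 4 genes that had a region, neighbours in the windows and the 3 genes with reads most like those of SMAD6. BMP8B, as the near-identical copy of BMP8A, and BMP4 were named outside this rule, after their values were seen. Members and lists were chosen with earlier results of these data known. Alternatives are given in the closing section.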

Additional observations from a re-analysis of the deposited data

How the results depend on the processing

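The 6 members with a reciprocal region became 2 (ID4 and SMAD6) at a log2 fold above 2 (6.27% of all genes), 9 with no filter on the fold (30.2%), and 5, without BAMBI, at an overlap of more than 50% (15.9%). Leaving out 1 library gave 6 to 7 members, ID1 joining without K4–K119 replicate 2 (27.2% of all genes) and CHRD without K119–K4 replicate 2 (27.0%). The other alternatives gave 6. The 9 members with peaks in all reChIP libraries and none in IgG–IgG became 7 at a log2 fold above 1 and 4 at one above 2, settings chosen after seeing the data.

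In the order comparison, DESeq2 called 310 genes higher in K4–K119 and 316 higher in K119–K4, and no filter on low counts called 3 and 0. Leaving out 1 library gave 0 to 635 higher in K4–K119 and 0 to 1 higher in K119–K4, the 635 and 1 without K119–K4 replicate 1. The cause was not tested. No member was called in the alternatives in which it was fitted (adjusted p from 0.134 to 1.00), which were 13 for each member but GREM1, not fitted in 3 of them. They include a minimum of 10 reads in each library, chosen after seeing the data. ID4, SMAD6 and ID1 were below 0 in the 13.

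Log2 ratios near 0 changed sign. ID3 was 0.057 with DESeq2, 0.11 at a mean of 50 reads, 0.032 with peaks of log2 fold above 1 and 0.18 with 10 reads in each library. SMAD7 was 0.057, 0.12, 0.049 and 0.17 under the same settings and 0.0305 without TMM. NOG was 0.018 at a mean of 50 reads and 0.079 with 10 reads in each library, and CHRD was 0.24 with peaks of log2 fold above 1. Leaving out 1 library gave −0.42 to 1.11 for ID2, −0.32 to 0.24 for ID3, −0.29 to 0.21 for SMAD7, −0.71 to 0.24 for BAMBI, −0.45 to 0.16 for NOG and −0.81 to 0.15 for CHRD. ID4 ranged from −1.69 to −0.64, SMAD6 from −1.17 to −0.33, ID1 from −1.21 to −0.39 and GREM1 from 1.35 to 8.71 in the same way, and ID1 was −2.18 with peaks of log2 fold above 1. The median over all genes was 0.28, against 0.39 with DESeq2, 0.50 with peaks of log2 fold above 1, 0.018 at a mean of 50 reads, 0.019 with 10 reads in each library and −0.017 to 0.57 when 1 library was left out.

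With a replicate block, 6 members kept a region and 0 genes were called in either direction. Deviations of the replicate 1 libraries from the means of their orders correlated at 0.0089 over 12722 genes. With 2 replicates per order the replicate 2 deviations mirror these. The value therefore cannot decide whether same-numbered libraries were paired.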

Other observations

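Within 100 kb of the 10 starts and away from coding promoters, 1 further reciprocal region was found. Its nearest edge lay at −23936 bp from the SMAD7 start, upstream and outside the gene, chr18:48974901-48977000, and it had 112 and 48 reads in the K4–K119 libraries, and 102 and 8 in the K119–K4 libraries, with no listed peak in IgG–IgG.

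By Euclidean distance of log2(reads + 1) over the 6 libraries, the genes most like SMAD6 were NR2F1 (0.190), which encodes a nuclear receptor of development, ANKRD33B (0.276) and the kinase gene PIM3 (0.281). NR2F1 had 843 and 587 reads in the K4–K119 libraries, and 1238 and 647 in the K119–K4 libraries.

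BMP4, chosen after its values were seen, had 417 and 330 reads in the K4–K119 libraries, and 332 and 287 in the K119–K4 libraries and no reciprocal region. Its main peak in K119–K4 replicate 1, with 330 reads and 35 input reads, had a log2 fold of 0.99.

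Gaps of up to 500 bp between listed peaks near the start were also noticed after values were seen. A gap was counted if it overlapped the stretch from 300 bp before to 50 bp after the canonical start. In K4–K119 replicate 1, gaps occurred at 5 members (ID1, ID2, ID3, ID4 and BAMBI), where 26.7% of genes with at least 10 reads had one. Those of ID3, ID4 and BAMBI ended before the start. There was no such gap in K4–K119 replicate 2 (9.26% of genes), 1 at ID3 in K119–K4 replicate 1 (8.61%) and 2 at SMAD6 and ID2 in K119–K4 replicate 2 (8.68%).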
